A study of Homo sapiens with 5 samples.

Results

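The alpha-arrestins are a family of trafficking adaptor proteins, and the set examined here is TXNIP with ARRDC1, ARRDC2, ARRDC3, ARRDC4 and ARRDC5. They were taken by name from the genes measured in Nalm6, a widely used human leukaemia line that arose from precursor B cells (acute lymphoblastic leukaemia). A gene counted as measured where a probe set of the array carried its symbol and no other. By that rule 5 of the 6 genes were measured, each by 1 probe set, out of 18417 genes in all, and ARRDC5 was not analysed here. The series compared 2 stable Nalm6 clones that expressed a nonsense short hairpin RNA (shRNA) with 3 clones that expressed a shRNA against MondoA, with 1 Affymetrix whole-transcript array per clone. All clones grew in the same medium, with 20% serum and 200 mg/dl glucose, so no glucose change was part of the design. Each array is 1 clone, the labels do not say how the clones are related, and the p-values measure the spread between these clones. Values are robust multi-array average (RMA) expression on the log2 scale, where 1 unit is a doubling. Errors are SD (n = 2 for control, n = 3 for MondoA shRNA), and differences are MondoA shRNA minus control.

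Alpha-arrestins share the arrestin fold with the arrestins of G-protein-coupled receptors. Most carry short proline-rich motifs through which they bring ubiquitin ligases of the NEDD4 family to membrane proteins, which are then internalised. TXNIP also binds thioredoxin, a small protein that reduces disulphide bonds, and promotes the uptake of glucose transporters from the cell surface. MondoA is the product of the MLXIP gene, a transcription factor that enters the nucleus with its partner MLX when glucose phosphates rise. TXNIP and ARRDC4 are its best known targets. MondoA and its paralogue ChREBP bind carbohydrate response elements, which are pairs of E-box-like sequences with a short spacer between them.

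The sequences before the starts of TXNIP, ARRDC4 and ARRDC3 are shown because the first and second are the known MondoA targets and the third had the largest difference between the clones. Each is the 250 bases before the outermost annotated start in RefSeq (GRCh38.p14), read 5′ to 3′ on the strand of the gene. Capitals mark matches to CACGNG on either strand. TXNIP lies on chromosome 1, on the minus strand at chr1:145996580-145996829. ARRDC4 lies on chromosome 15, on the plus strand at chr15:97960453-97960702, and ARRDC3 on chromosome 5, on the minus strand at chr5:91383318-91383567.
TXNIP: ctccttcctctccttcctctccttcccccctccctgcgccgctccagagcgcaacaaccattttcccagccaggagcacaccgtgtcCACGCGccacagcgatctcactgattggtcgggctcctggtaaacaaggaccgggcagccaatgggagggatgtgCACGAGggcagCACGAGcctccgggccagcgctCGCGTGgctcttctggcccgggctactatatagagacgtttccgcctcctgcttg
ARRDC4: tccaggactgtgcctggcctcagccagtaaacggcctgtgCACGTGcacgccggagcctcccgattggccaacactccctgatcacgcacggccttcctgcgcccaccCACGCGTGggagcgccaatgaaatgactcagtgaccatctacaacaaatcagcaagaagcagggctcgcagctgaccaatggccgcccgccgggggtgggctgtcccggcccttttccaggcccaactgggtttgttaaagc
ARRDC3: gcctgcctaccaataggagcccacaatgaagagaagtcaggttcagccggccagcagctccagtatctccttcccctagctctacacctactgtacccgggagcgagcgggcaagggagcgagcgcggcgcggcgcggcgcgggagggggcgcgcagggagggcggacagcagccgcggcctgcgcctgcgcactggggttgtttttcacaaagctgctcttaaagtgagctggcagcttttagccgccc

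The TXNIP window held 4 matches to CACGNG, from 163 to 50 bases before the start. Of these, 2 formed a pair, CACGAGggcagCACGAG, from 88 to 72 bases before the start, with a spacer of 5 bases. A search of both strands for that arrangement, CACGNG followed after any 5 bases by a further CACGNG, found it in 16 of 35116 windows of the same length before annotated starts (0.0456%). TXNIP was the sole alpha-arrestin among them, but the arrangement searched was that of its own pair. Pairs with another spacer, or with the second sequence in another orientation or form, were not searched. The windows of the other members are thus not shown to lack a carbohydrate response element. The ARRDC4 window held 3 matches, of which 1 was the palindromic E-box CACGTG, 210 to 205 bases before the start, and the other 2 overlapped each other. CACGTG was found in 6.34% of windows and CACGNG, which includes it, in 26.7%. The ARRDC2 window on chromosome 19 held 3 matches to CACGNG, from 49 to 8 bases before the start. The windows of ARRDC3 and of ARRDC1 (chromosome 9) held none. A second annotated start lies within each of TXNIP, ARRDC2 and ARRDC3, and the window before it held 1 match in ARRDC3 and 0 in the other 2 genes. A match describes the letters alone, and binding was not measured.

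**Figure D1:**
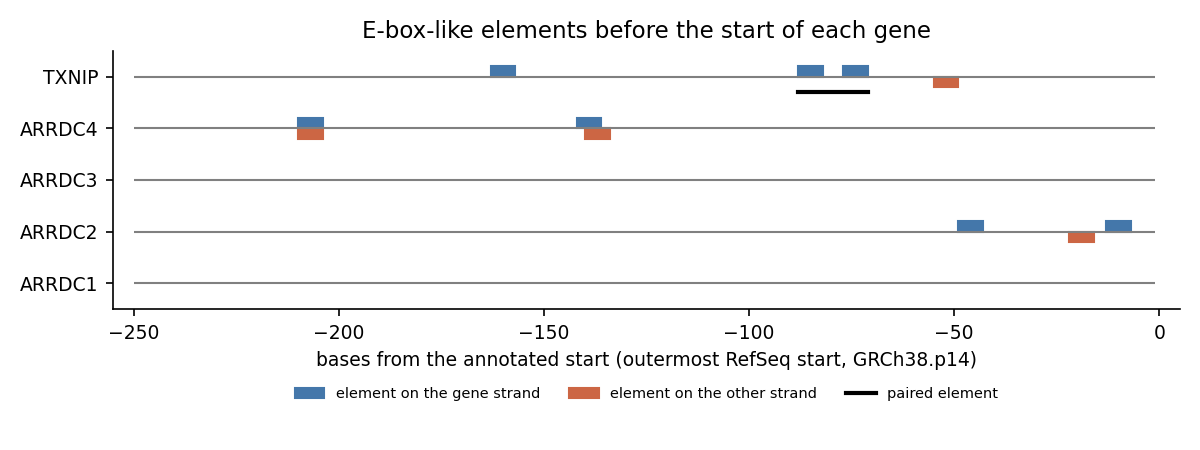
Matches to CACGNG in the 250 bases before the outermost RefSeq start of each measured alpha-arrestin, in bases from the start, with boxes above the line on the gene's own strand and below it on the other strand. The black bar marks the paired element of TXNIP, 88 to 72 bases before the start, and the windows of ARRDC3 and ARRDC1 hold no match.

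The cell type and the level of each probe set were checked first. All 12 measured genes of a list of 14 B-precursor markers, among them PAX5, VPREB1 and MME, read above the 95th percentile of 341 olfactory receptor genes (3.05). Those genes were taken as a rough reference for background, since no detection calls were used here. The B-precursor markers were not at 1 level in all clones. At an unadjusted p under 0.05 by limma, 3 of the 12 were higher in MondoA shRNA arrays (CD22 at 1.27, CD79A at 0.91 and CD79B at 0.25) and 1 was lower (DNTT at -1.19), against 3.73% of all genes in either direction. Every MondoA shRNA array lay above both controls in 3 of them and below both in 3, the lower ones being DNTT, RAG1 (-0.45) and CD24 (-0.33). Over all genes these shares were 4.85% above and 5.18% below, and 31.0% on either side among the 4301 genes without tied values. None of the 12 markers passed the adjusted threshold. The part of these markers in the differences of the alpha-arrestins was not tested. Of 15 measured markers of other lineages, 6 read above the olfactory receptor percentile, the highest being NKG7. The median of that list was 2.94 in control and 2.93 in MondoA shRNA arrays. TXNIP, ARRDC1, ARRDC2 and ARRDC3 read above all 341 olfactory receptor genes and ARRDC4 above 340 of them, so ARRDC4 lay closest to this reference. MLXIP, the gene the shRNA was aimed at, read 6.42, 6.47 and 6.29 in MondoA shRNA clones 1, 2 and 3 against 6.42 in each control, a difference of -0.03 (adjusted p = 0.959 by limma). The 95% interval ran from -0.21 to 0.16, so lower MLXIP RNA was not detected, and every direction below refers to the label of the clone. Both controls and MondoA shRNA clone 1 had exactly the same MLXIP value, so this check rests on 3 different values over the 5 arrays. MondoA protein was not measured on these arrays.

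No alpha-arrestin passed the test between the clones. Of the 5 measured genes, 0 had an adjusted p under 0.05 by limma, and 0 had an unadjusted p under 0.05. Across all genes these counts were 0 of 18417 (0%) and 687 (3.73%). The directions were mixed, with 4 differences below 0 and 1 above, and their median was -0.08, beside 0.00 over all genes. ARRDC3 stood furthest from 0, at -0.78, and ARRDC2 was the one with a positive difference, at 0.18. The remaining members, TXNIP, ARRDC1 and ARRDC4, lay between -0.10 and -0.08.

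TXNIP, the thioredoxin-binding member, read 9.03 in control array 1 and 8.89 in control array 2, against 8.91, 8.91 and 8.75 with the MondoA shRNA (arrays 1, 2 and 3). The groups overlapped, since MondoA shRNA arrays 1 and 2 lay between the controls, and the 3rd array alone was below both. The means were 8.96 ± 0.10 and 8.86 ± 0.09, a difference of -0.10 ± 0.08 (SE, limma adjusted p = 0.833). As a change in the linear value this was -6.71%, with a 95% interval from -20.5% to 9.44%. A fall to 50% of the control level, or -1 on the log2 scale, lies outside that interval. MondoA shRNA arrays 1 and 2 had exactly the same value, so the interval rests on 4 different values. It concerns clones by their label, since lower MLXIP RNA was not detected. The difference was -0.03 without control array 1 and -0.17 without control array 2, so its size rested on which control was used. In bulk RNA, fewer cells with the transcript and less transcript per cell cannot be told apart.

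ARRDC4, a close relative of TXNIP that also restrains glucose uptake, read 4.60 and 4.69 in the controls against 4.51, 4.60 and 4.60 with the MondoA shRNA. Control array 1 and MondoA shRNA arrays 2 and 3 had exactly the same value, so the groups touched. The difference was -0.08 ± 0.05 (SE, adjusted p = 0.833 by limma), with an interval of -13.9% to 4.47% for the linear value. Without control array 2 it was -0.03. The question of whether both known targets moved alike was put to the within-array difference of ARRDC4 and TXNIP. That difference changed by 0.02 between the groups, with an exact two-sided permutation p of 0.8 over the 10 ways of choosing 3 of 5 arrays. The smallest p such a design can give is 0.1.

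ARRDC3, an adaptor for the trafficking of the beta-2 adrenergic receptor and of integrin beta 4, had the largest difference of the family. It read 6.43 in control array 1 and 6.20 in control array 2, against 5.04, 5.80 and 5.78 with the MondoA shRNA (arrays 1, 2 and 3). All 3 MondoA shRNA arrays were below both controls, with a gap of 0.40 between the groups, and array 1 was the lowest by a wide margin. The means were 6.32 ± 0.16 and 5.54 ± 0.43, a difference of -0.78 ± 0.30 (SE), or 1.71-fold lower. The 95% interval ran from -1.67 to 0.11 and limma gave an unadjusted p of 0.0708 and an adjusted p of 0.833, so the difference did not pass. It was -0.53 without MondoA shRNA array 1, where the unadjusted p was 0.0226 and the adjusted p 0.660. Of 18417 genes, 63, ARRDC3 included, had a difference as low or lower, and 98 had an SD over the 5 arrays at least as large (0.532% of genes).

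ARRDC2, a less studied relative, went the other way. It read 6.05 and 6.26 in the controls against 6.30, 6.43 and 6.28 with the MondoA shRNA. The 3 MondoA shRNA arrays lay above both controls, but the gap to control array 2 was 0.02, well within the spread of 0.22 between the controls. The difference was 0.18 ± 0.09 (SE, adjusted p = 0.833 by limma), or 1.13-fold higher, and it was 0.07 without control array 1. ARRDC1, which drives the budding of small vesicles at the cell surface, read 5.97 and 6.07 in the controls against 5.97, 5.97 and 5.87 with the MondoA shRNA. Its groups touched, with control array 1 equal to MondoA shRNA arrays 1 and 2, and the difference was -0.08 ± 0.05 (SE, adjusted p = 0.833 by limma). ARRDC1-AS1, the antisense transcript at the same locus, has a probe set of its own and differed by -0.11 (adjusted p = 0.833 by limma).

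**Figure D2:**
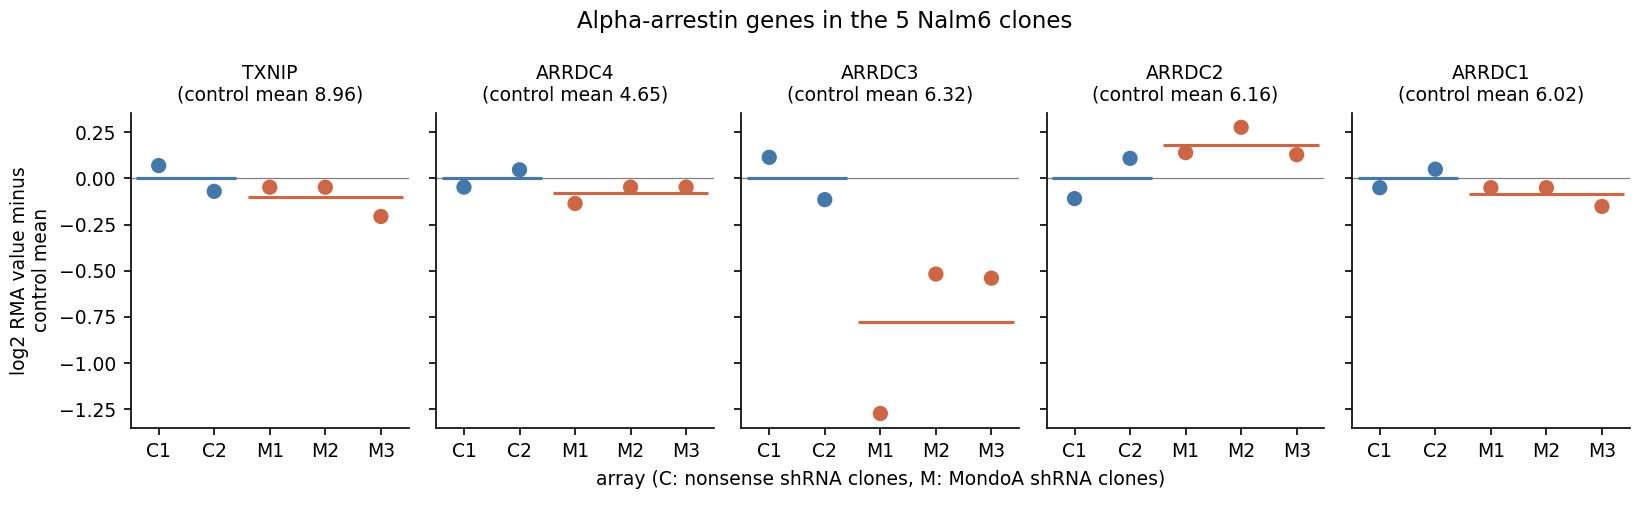
Value of each alpha-arrestin in each array minus the mean of the 2 control arrays, on the log2 scale, with blue points for nonsense shRNA clones, orange points for MondoA shRNA clones and lines at the group means. ARRDC3 is below both controls in all 3 MondoA shRNA arrays and lowest in array 1, ARRDC2 is above them by a narrow margin, and the groups of TXNIP, ARRDC4 and ARRDC1 overlap or touch.

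The groups were thus separate for 2 of 5 members, ARRDC3 below and ARRDC2 above. Over all genes every MondoA shRNA array lay below both controls in 5.18% and above both in 4.85%. Among the 4301 genes with 5 different values, to which both ARRDC3 and ARRDC2 belong, that share was 31.0%. Tied values are common in these RMA summaries, and TXNIP, ARRDC1 and ARRDC4 each had 2 or 3 arrays at exactly 1 value. The separation of ARRDC2 and ARRDC3 is therefore a description of these genes and no test of the family.

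Members were also set against each other within each array, which removes any shift common to the array. All 10 pairs of measured members were compared, and pairs that share a member are not independent. The widest change was in ARRDC2 minus ARRDC3, which was 0.96 greater in MondoA shRNA than in control arrays (exact two-sided permutation p = 0.1, 0.2 after Benjamini-Hochberg adjustment over 10 pairs). TXNIP minus ARRDC3 changed by 0.68 (exact permutation p = 0.2, adjusted 0.286). No pair can go below 0.1 in this design, so none could pass. Among TXNIP, ARRDC1 and ARRDC4 the 3 pairs overlapped between the groups and changed by at most 0.02.

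**Figure D3:**
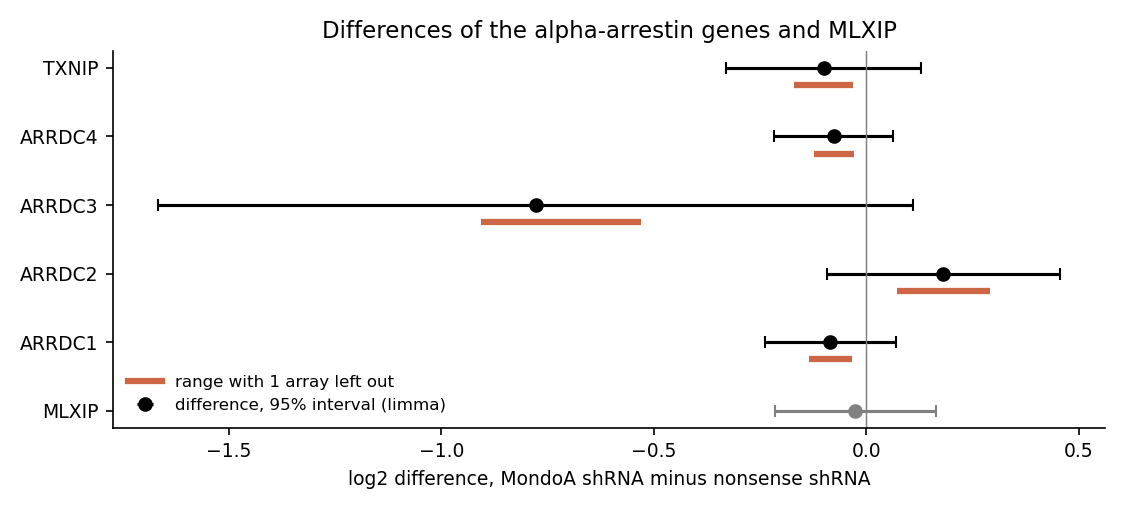
Difference between MondoA shRNA and nonsense shRNA arrays on the log2 scale for the alpha-arrestins and MLXIP, with points and whiskers for the limma estimate and its 95% interval and orange bars for the range when 1 array was left out. All 6 intervals include 0, and the interval of ARRDC3, from -1.67 to 0.11, is the widest.

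The proteins that alpha-arrestins work with were read from lists of genes. The ligases of the NEDD4 family, which alpha-arrestins recruit, differed little. Of 9 measured ligases, 0 passed, 4 differences were above 0, 4 below and 1 at 0, and the median was 0.00. NEDD4 differed by 0.17, WWP1 by -0.09 and WWP2 by 0.09. Every MondoA shRNA array lay below both controls for WWP1, the 1 ligase with separate groups (5.18% of all genes lay below). ITCH, a ligase known to bind TXNIP, read 6.98 in both controls against 6.85, 7.05 and 6.98 with the MondoA shRNA. NEDD4L, named after its value was seen, lies on chromosome 18, where all 110 genes with a mean level above 5 were lower in MondoA shRNA arrays (median -0.42). Over all 18417 genes, at any level, 7585 were below 0 and the median was 0.00. NEDD4L differed by -0.08, and its groups overlapped.

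Among cargo and partners of alpha-arrestins, 13 genes were measured and 0 passed the adjusted threshold, while an unadjusted p under 0.05 by limma was reached by 1 gene in each direction (background 1.55% higher and 2.18% lower). The lower one was SLC2A3, the glucose transporter GLUT3, which read 7.33 and 7.10 in the controls against 6.90, 6.40 and 6.62 with the MondoA shRNA. Its groups did not overlap, and the difference was -0.58 (adjusted p = 0.833 by limma). SLC2A1, the transporter GLUT1 whose surface level TXNIP lowers, differed by 0.11, from 7.80 and 7.77 in the controls to 7.96, 7.81 and 7.92 with the MondoA shRNA. Its groups were separate by a narrow margin. The higher one was NDFIP1, a membrane adaptor that activates NEDD4-family ligases, at 4.78 and 4.64 in the controls against 5.11, 5.42 and 5.28 with the MondoA shRNA. Its groups were separate, with a difference of 0.56 (adjusted p = 0.833 by limma). The transferrin receptor gene TFRC differed by 0.33 with overlapping groups. Every MondoA shRNA array lay above both controls in 2 of the 13 genes and below both in 1, against 4.85% and 5.18% of all genes. In all, 11 of the 13 differences were above 0 and 2 below, with a median of 0.05. Among all 18417 genes, 9044 were above 0, 7585 below and 1788 at 0. Several of the 11 were small, such as ITGB4 (0.04), NDFIP2 (0.03), NLRP3 (0.03) and SLC2A4 (0.02), each with tied values, and no test of the signs was made.

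The thioredoxin system, which TXNIP binds and inhibits, had 14 measured genes, of which 0 passed, with 8 differences above 0, 6 below and a median of 0.02. TXN itself read 9.04 and 8.86 in the controls against 9.02, 9.24 and 8.83 with the MondoA shRNA, a difference of 0.08 that lay within the spread of each group. MSRB1, a methionine sulphoxide reductase that depends on thioredoxin, was the member with an unadjusted p under 0.05 by limma, at 0.17 (adjusted p = 0.833). Of all genes, 1.55% were higher at that level. The related reductases MSRB3 and MSRB2 differed by -0.16 and -0.15. Among other proteins of the arrestin fold, 7 were measured and 0 passed. The retromer subunit gene VPS26A differed by -0.29 and VPS26C by 0.24, both with overlapping groups.

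Of 13 genes in the network of MondoA, MLX, MYC and MAX, 0 passed, with 4 differences above 0, 6 below and 3 at 0. MLX, the partner that MondoA needs to bind DNA, read 6.97 and 6.96 in the controls against 7.06, 7.36 and 7.13 with the MondoA shRNA, a difference of 0.22 (adjusted p = 0.833 by limma). MGA, a repressor that pairs with MAX, differed by -0.22 and MXD4 by -0.15. Every MondoA shRNA array lay above both controls for MLX and below both for MGA, and for no other gene of the 13. Over all genes these shares were 4.85% and 5.18%. The list of reported MondoA and ChREBP targets had 23 measured genes, 4 of them alpha-arrestins, with 13 differences above 0, 9 below, 1 at 0 and a median of 0.01. RGS16, which shortens signalling by G proteins, stood lowest in that list at -1.24 and was its 1 gene with an unadjusted p under 0.05 by limma (0.00630, adjusted 0.833). It read 8.21 and 7.94 in the controls against 6.62, 6.73 and 7.16 with the MondoA shRNA, all below both controls, as for ARRDC3. Of all genes, 2.18% were lower at that unadjusted p, and 5.18% had every MondoA shRNA array below both controls. Among genes without tied values, as RGS16 and ARRDC3 are, 31.0% were separate on either side. ARRDC3 had the next lowest difference in the list, and MID1IP1, an activator of fatty acid synthesis, followed at -0.24. None of the 3 passed the adjusted threshold.

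**Figure D4:**
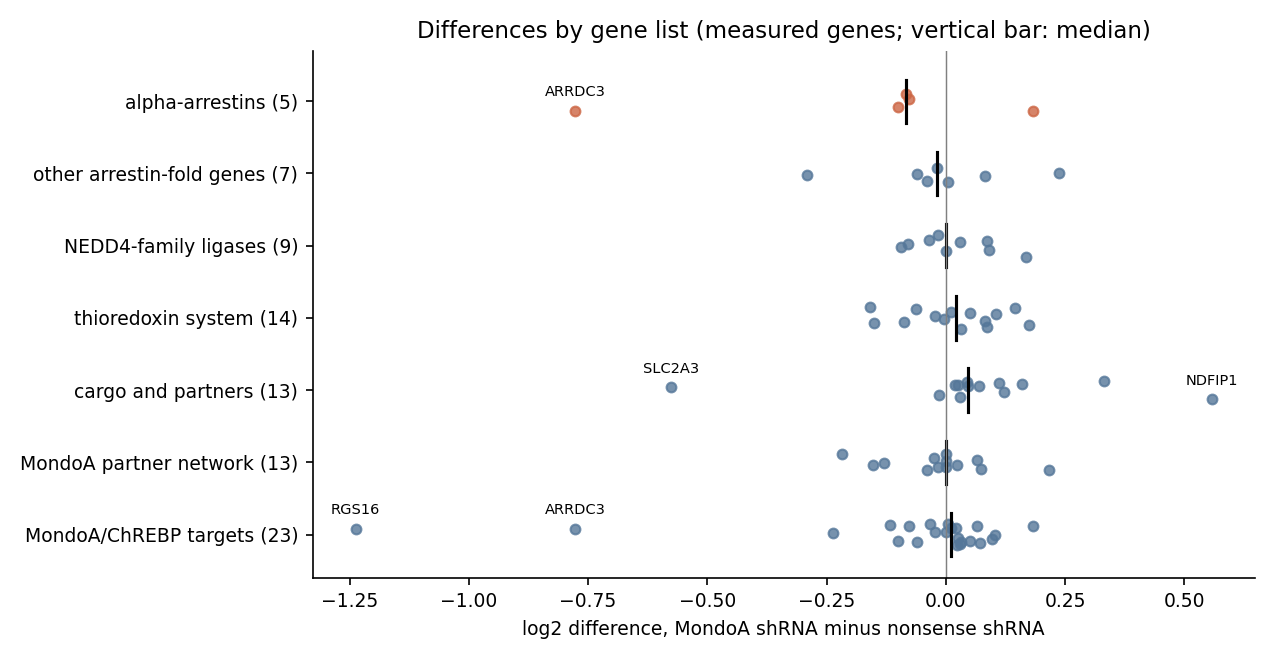
Difference between MondoA shRNA and nonsense shRNA arrays on the log2 scale for every measured gene of the alpha-arrestins and of 6 related lists, 1 point per gene, with the number of genes in parentheses and a vertical bar at the median. Genes beyond 0.4 in either direction are labelled, and the list medians lie between -0.08 and 0.05.

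The genes whose values followed those of ARRDC3 and TXNIP most closely were taken from the 9208 genes above the median level. Likeness was the Euclidean distance between the deviations of both genes from their own means over the 5 arrays, which share their arrays and their normalisation. Nearest to ARRDC3, the most variable member, were CPS1, an enzyme of the urea cycle (distance 0.19), CYFIP1 (0.19), the transcription factor gene ERG (0.20), ANKRD50 (0.21) and WDR7 on chromosome 18 (0.21). In each of these 5 genes MondoA shRNA array 1 was the lowest and control array 1 the highest, as in ARRDC3. Their differences ran from -0.89 in CYFIP1 to -0.59 in WDR7. Nearest to TXNIP were GPATCH2L (0.02), INSIG2, which restrains sterol synthesis (0.03), C14orf132 (0.03), MFAP3 (0.03) and CCNO (0.04). Control array 1 was the highest and MondoA shRNA array 3 the lowest in all 5, and each had at least 1 value shared exactly between arrays, as TXNIP did. The shared highest and lowest arrays largely follow from choosing the nearest genes, and are no separate result. With 5 arrays many genes can take a like pattern, and no test was made.

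**Figure D5:**
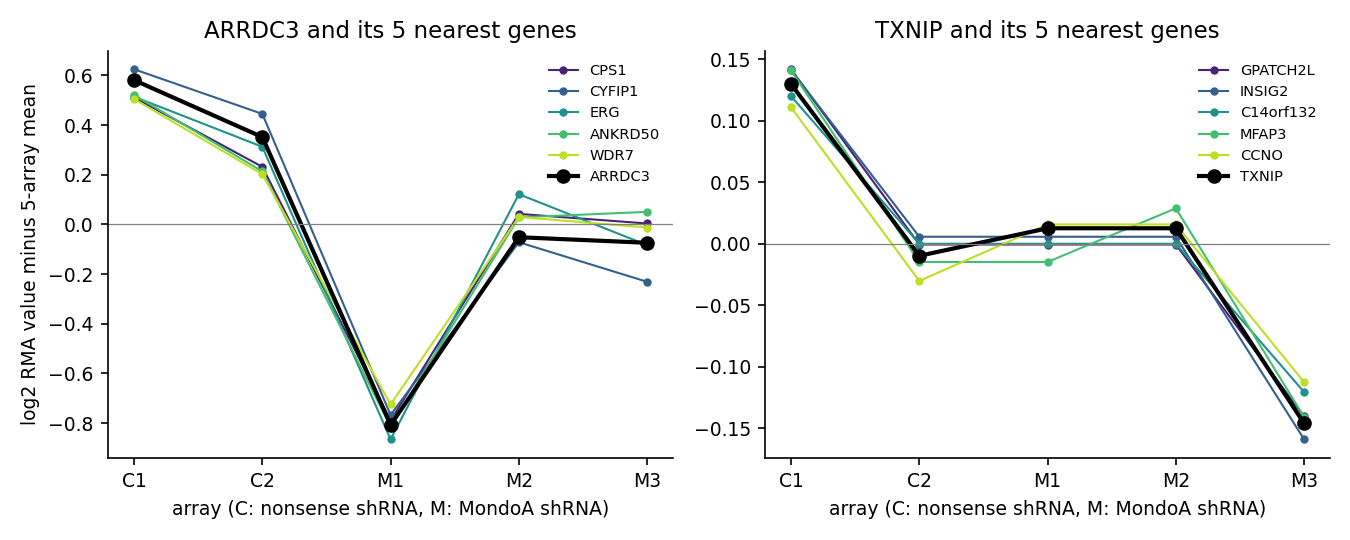
Deviation of each gene from its own mean over the 5 arrays, on the log2 scale, for ARRDC3 (left) and TXNIP (right) in black and the 5 genes nearest to each in colour. Array M1, MondoA shRNA array 1, is the lowest for ARRDC3 and its neighbours, and array M3 the lowest for TXNIP and its neighbours, on a vertical scale that is narrower for TXNIP.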

How the data were processed

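Total RNA (200 ng per array, per the labels) of 5 Nalm6 clones was measured on Affymetrix whole-transcript arrays. Per the submitters' processing notes, the authors summarised probes with RMA in Affymetrix Expression Console 1.1, and the deposited log2 values are 1 per probe set (33297 probe sets, from 1.42 to 13.3). The base of the logarithm was taken as 2, which RMA gives. The genome build and annotation behind the values are not given in the sources used here.

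Symbols came from the platform annotation, updated by Entrez number through RefSeq (GRCh38.p14). Exactly 1 symbol was given for 19460 probe sets (19429 matched RefSeq), several for 1754 and none for 12083. For each gene the brightest probe set, by its 5-array mean, was kept. Groups followed the clone labels and were compared with limma 3.58.1 in R 4.3.3 over all 18417 genes (two-sided, Benjamini-Hochberg, threshold 0.05), without pairing. Exact permutation tests over arrays compared members. On simulated data built from these 18417 genes, limma called 61.9% of changes of 1 log2 unit and 42.6% of 0.5. Each gene kept its own spread there, which is 0 or close to 0 in many genes with tied values. Those shares therefore do not apply to single members such as ARRDC3. The number of arrays limits the precision. Promoter windows of the 5 measured genes came from RefSeq.

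The members, lists and tests were chosen with earlier results of these data known. Named genes are all members, MLXIP, the 3 largest differences of each related list, list genes at an unadjusted p under 0.05, SLC2A1, TXN and ITCH, and the 5 genes nearest in pattern to TXNIP and to the most variable member. Alternatives left out arrays, used the replicate number as a block, renormalised or centred the arrays, changed the genes or probe sets tested, the variance prior or the moderation, or weighted the arrays.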

Additional observations from a re-analysis of the deposited data

How the results depend on the processing

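Across 82 member values under the alternatives, 0 changed sign and 0 passed the adjusted threshold. Changes to the genes or probe sets tested, the variance prior or the moderation left the member differences as they were. The sign was thus fixed in those fits, and only the other alternatives could move it. Among the others, the replicate block repeated the member differences of the fit without MondoA shRNA array 3. The lowest adjusted p by limma was 0.190 (ARRDC3 over the 4301 genes without tied values). The unadjusted limma p of ARRDC3 fell under 0.05 there (0.0102), after a further quantile normalisation (0.0344) and without MondoA shRNA array 1 (0.0226). In every other alternative it stayed above 0.05. Among those, the limma p was 0.0946 without MondoA shRNA array 2, 0.101 without array 3 and 0.101 without moderation. With 1 array left out, ARRDC3 ran from -0.91 to -0.53, ARRDC2 from 0.07 to 0.29, TXNIP from -0.17 to -0.03, ARRDC1 from -0.13 to -0.03 and ARRDC4 from -0.12 to -0.03. The change in ARRDC4 minus TXNIP ran from -0.09 to 0.14 and was below 0 when control array 1 (-0.093) or MondoA shRNA array 3 (-0.044) was left out.

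The count of all genes called, 0, became 2 after a further quantile normalisation, 2 after centring each array, 3 in fits that dropped the moderation, 60 over genes without tied values (chosen after seeing the data) and 0 to 752 with 1 array left out. The counts of 752 without control array 1 and 454 without control array 2 come from fits that give the lone control the spread seen among MondoA shRNA arrays. No member was among those called. At an unadjusted p under 0.05 the count ran from 472 without moderation to 1987 without control array 1.

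The labels link no clones by number, so no pairing was used. Deviations of same-numbered clones from their group means correlated at -0.29 (number 1) and -0.23 (number 2) over genes. With 2 controls, the deviations of 1 are exactly the opposite of those of the other. The same sizes with a plus sign thus arise across numbers (0.29 and 0.23), and these values cannot decide whether clones were paired. With the replicate block 0 genes were called, 660 stood at an unadjusted p under 0.05, and none of the 5 members passed the adjusted threshold. MondoA shRNA array 3 has no control of its number, so the block takes it up and it adds nothing to the differences. The member differences in that fit equal those without MondoA shRNA array 3. ARRDC4 (-0.09, unadjusted p = 0.0308) and ARRDC2 (0.21, 0.0469) came under an unadjusted 0.05 in that limma fit, and ARRDC3 (-0.90) was at 0.189.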
